A study of Homo sapiens with 6 samples.

Results

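Paraspeckles are nuclear bodies built around the long noncoding RNA NEAT1, whose long isoform is the scaffold on which RNA-binding proteins (RBPs) assemble. SFPQ, NONO and PSPC1 form the DBHS family, whose members carry related RNA recognition motifs, pair with one another and coat the NEAT1 scaffold. RBM14, HNRNPK, DAZAP1 and HNRNPH3 are RBPs known to be needed for paraspeckle formation, and TARDBP (TDP-43) and MATR3 (matrin 3) are nuclear RBPs found in paraspeckles or bound to DBHS proteins and NEAT1.

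These 9 genes were followed among the 25545 genes of the deposited expression table, where each was found by its symbol. All 9 passed the filter of a mean of at least 1 TPM (a read count scaled by transcript length and by library) and were among the 10721 genes tested. Their mRNA levels were compared in BT-549 cells, an established triple-negative breast cancer (TNBC) line kept in RPMI1640 with serum and insulin, that had been transfected with a control siRNA (CsiRNA, n = 3 libraries) or with an siRNA against NEAT1 (NEAT1siRNA, n = 3 libraries) 48 h before RNA was isolated. The sample titles also carry the tag "tet", for which the labels give no inducing agent. Cells were cultured in triplicate, and nothing more is given on whether the cultures were independent, so p-values measure the spread between these libraries only.

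Of the 9 mRNAs, 3 fell on NEAT1 silencing. SFPQ decreased to 80.5%, PSPC1 to 77.0% and RBM14 to 77.7% of the control mean, while NONO, the partner that the DBHS proteins share, stood at 99.9%. HNRNPK, DAZAP1, HNRNPH3, TARDBP and MATR3 did not pass the test in either direction. In bulk RNA, fewer cells that express a gene and less of its RNA per cell cannot be told apart. As background, 14.0% of all genes tested passed an adjusted p of 0.05 with limma (8.98% lower and 4.99% higher), and 19.3% of the genes tested had every NEAT1siRNA library below every CsiRNA library (30.3% had groups apart in either direction). Among the 9 genes, the 3 that passed were also the 3 whose groups lay apart. The median log2 fold change was -0.10 over the 9 genes and -0.044 over all genes tested, and 7 of the 9 values were negative, as were 60.7% of all those tested. Both moved with the setting, as did the median over all genes tested. The median of the 9 was -0.048 with median centring and -0.066 with quantile normalization, beside 0.013 and -0.0017 over all genes tested. It was -0.057 with voom on recovered reads and -0.060 without NEAT1siRNA replicate 3, beside -0.0011 and -0.010. In each of these fits 5 of 9 values were negative.

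The silenced gene itself was lower in each NEAT1siRNA library. NEAT1 measured 13.4, 7.68 and 10.8 TPM with CsiRNA (replicates 1, 2 and 3, the order used throughout) and 4.36, 2.96 and 2.73 TPM with NEAT1siRNA, which left 31.5% of the control mean (log2 fold change -1.41, adjusted p = 1.21e-07 with limma). The table has a single row for NEAT1, so the short and long isoforms were not separated. MALAT1, a neighbouring nuclear lncRNA of nuclear speckles, had overlapping groups, at 320 to 575 TPM with CsiRNA and 228 to 387 TPM with NEAT1siRNA, and its adjusted p of 0.0123 with limma became 0.142 without CsiRNA replicate 1, 0.145 without NEAT1siRNA replicate 3 and 0.102 without the short noncoding RNAs described next.

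The libraries held 15787143 to 20342700 reads, recovered from the deposited tables. In TPM, 64.4 to 68.1% of each library went to RN7SK, RN7SL1, RN7SL2 and RPPH1, short noncoding RNAs that took 2.30 to 3.01% of the reads, so TPM of all other genes depend on them. RN7SL1 and RN7SL2 rose on silencing (adjusted p = 0.0467 and 0.00518 with limma), though the groups of RN7SL1 overlapped. RN7SK and RPPH1 were at 91.1% and 90.5% of the control mean and did not pass (adjusted p = 0.183 and 0.221 with limma). The mesenchymal genes VIM, CD44, FN1, ZEB1 and CDH2 were all expressed, with control means of 15.1 TPM for ZEB1 to 1046 TPM for VIM. The receptor gene ESR1 was listed at 0, PGR, EPCAM and CDH1 were at or below 0.124 TPM in each group mean, and ERBB2 was at 6.19 TPM with CsiRNA. Of the immune and endothelial markers, CD3E and CDH5 were listed at 0, PTPRC and PECAM1 were at or below 0.0382 TPM in each group mean, and CD68, a lysosomal protein gene that many tumour lines express, was 26.3 and 23.7 TPM. CD44, FN1 and CDH2 fell in the same libraries as SFPQ, PSPC1 and RBM14. The log2 fold changes of CD44, FN1 and CDH2 were -0.31, -0.47 and -0.34 (adjusted p = 0.0187, 0.00116 and 0.0186 with limma). VIM and ZEB1 did not pass the test, at -0.15 and -0.023 (adjusted p = 0.243 and 0.916 with limma). The part of these mesenchymal genes in the levels of the RBP genes was not tested. In all, 963 genes fell and 535 rose. This split depended on the scaling, at 1109 lower and 1082 higher with quantile normalization, 954 and 1158 with median centring, 1119 and 940 without the short noncoding RNAs, and 1280 and 1186 with voom on recovered reads.

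In the CsiRNA group, HNRNPK at 226 ± 15.1 TPM (mean ± SD, n = 3) was the most abundant of the 9 mRNAs, followed by NONO at 204.5 ± 2.07 TPM and SFPQ at 116 ± 5.03 TPM. MATR3 came next at 66.2 ± 3.81 TPM, and the control libraries of these 4 genes did not overlap with one another. HNRNPH3 at 50.9 ± 2.88, TARDBP at 48.8 ± 2.30 and DAZAP1 at 47.9 ± 2.60 TPM overlapped, and no order among them was larger than the replicate spread. RBM14 at 14.2 ± 0.174 TPM and PSPC1 at 11.3 ± 0.990 TPM were the lowest. Within all genes tested, the mean level over the 6 libraries was at or above that of 98.2% for HNRNPK and of 52.8% for PSPC1, so the genes that fell include both an abundant mRNA (SFPQ, 95.3%) and the least abundant of the 9.

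**Figure D1:**
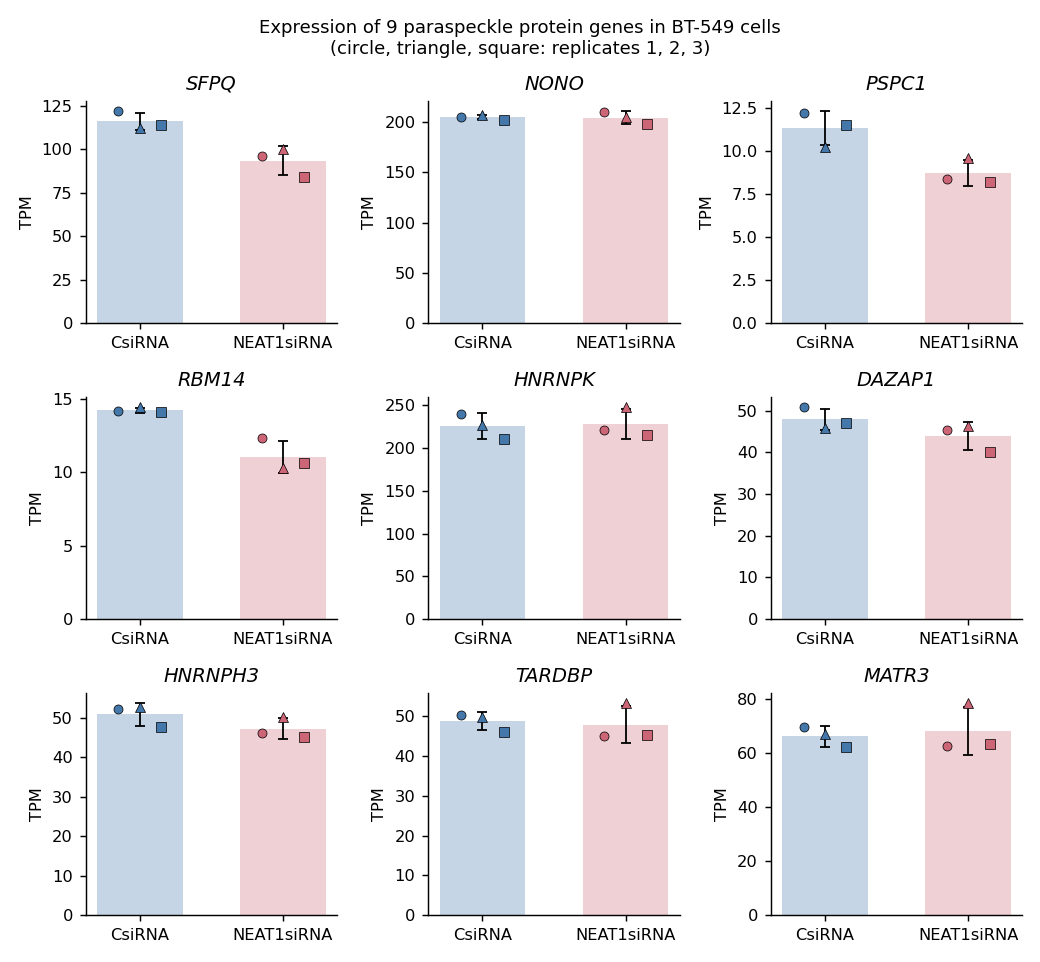
TPM of each of the 9 genes (vertical axes, starting at 0) in the CsiRNA and NEAT1siRNA groups, with bars at the mean, error bars of 1 SD over 3 libraries and a point for each library. SFPQ, PSPC1 and RBM14 have every NEAT1siRNA point below every CsiRNA point, and the other 6 genes overlap.

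SFPQ is a DBHS protein that stabilises the NEAT1 scaffold, and it also acts in transcription and splicing. Its gene lies on the minus strand at chr1:35176378-35193446 (GRCh38, protein coding). SFPQ measured 122, 112 and 114 TPM with CsiRNA and 96.0, 100.2 and 84.3 TPM with NEAT1siRNA. The groups did not overlap, and the lowest control library was above the highest silenced library. The log2 fold change on log2(TPM + 1) was -0.31 with a standard error of 0.09 and a 95% interval of -0.50 to -0.13 (adjusted p = 0.0205, limma). Some 5541 to 9201 recovered reads per library lie behind these values. The call was lost without CsiRNA replicate 1 (log2 fold change -0.28, adjusted p = 0.121, limma) and without NEAT1siRNA replicate 3, the lowest of the silenced libraries (-0.24, adjusted p = 0.160, limma).

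PSPC1 is the third DBHS protein, which can pair with NONO or SFPQ but is not needed for paraspeckles to form. Its gene spans chr13:19674752-19783019 on the minus strand of GRCh38. PSPC1 measured 12.2, 10.2 and 11.5 TPM with CsiRNA and 8.35, 9.60 and 8.20 TPM with NEAT1siRNA. Every silenced library was below the control range, with NEAT1siRNA replicate 2 nearest to it. The log2 fold change was -0.34 (SE 0.10, 95% interval -0.54 to -0.14, adjusted p = 0.0195, limma). PSPC1 rests on 586 to 1006 recovered reads, the fewest of the 9 genes. As with SFPQ, the call was lost without CsiRNA replicate 1 (-0.29, adjusted p = 0.109, limma) or NEAT1siRNA replicate 3 (-0.30, adjusted p = 0.101, limma).

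NONO, the most abundant DBHS mRNA, encodes the protein that forms dimers with SFPQ and PSPC1. It lies at chrX:71254814-71301522 on the plus strand of GRCh38. NONO measured 205, 206 and 202 TPM with CsiRNA and 210.1, 205 and 198 TPM with NEAT1siRNA, so the groups overlapped and the NEAT1siRNA libraries took both the highest and the lowest value. Its log2 fold change was -0.0024 (adjusted p = 0.991, limma), and the 95% interval of -0.17 to 0.17 does not reach the estimates of SFPQ or PSPC1. That interval leaves room for changes of NONO smaller than these in either direction. It overlaps with the 95% intervals of SFPQ and PSPC1, and the differences between these fold changes were not tested.

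Within each library, the DBHS mRNAs can be compared with one another without reference to the scaling of the library. SFPQ made up 36.0, 34.1 and 34.8% of the summed TPM of SFPQ, NONO and PSPC1 in the CsiRNA libraries and 30.5, 31.8 and 29.0% in the NEAT1siRNA libraries. The share thus decreased from 35.0 ± 0.924% to 30.5 ± 1.40% (SD, n = 3 each), a difference of -4.50 percentage points, with no overlap between the groups (exact permutation test, two-sided, p = 0.1, the smallest that 3 against 3 libraries allow). NONO took 60.4 to 62.7% of the sum with CsiRNA and 65.1 to 68.1% with NEAT1siRNA. PSPC1 took 3.11 to 3.60% with CsiRNA and 2.65 to 3.05% with NEAT1siRNA. Counted in recovered reads instead of TPM, the difference for SFPQ was -4.51 percentage points. Since the 3 shares sum to the whole, they are not independent of one another.

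**Figure D2:**
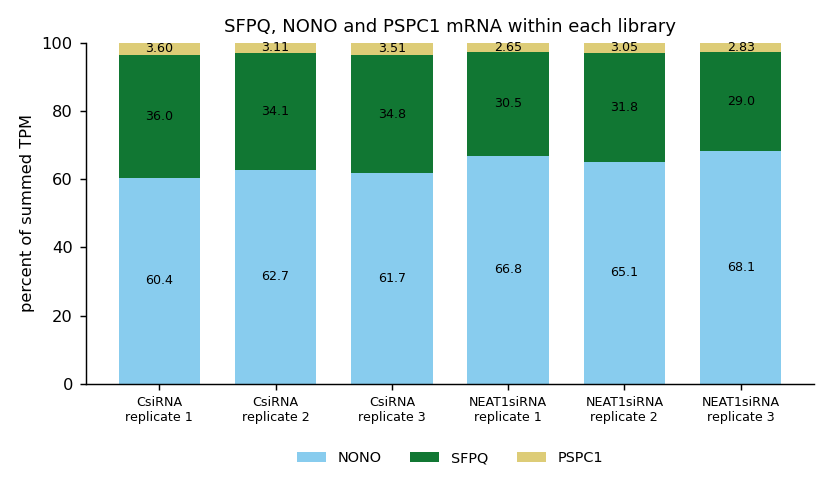
Share of NONO, SFPQ and PSPC1 in their summed TPM (percent, vertical axis) in each of the 6 libraries, stacked and labelled. SFPQ lies at 34.1 to 36.0% in the CsiRNA libraries and at 29.0 to 31.8% in the NEAT1siRNA libraries.

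RBM14 carries a prion-like domain and is known to hold together the sub-complexes of the paraspeckle. The gene lies at chr11:66616626-66629934 on the plus strand of GRCh38. RBM14 measured 14.2, 14.4 and 14.1 TPM with CsiRNA, the tightest control values of the 9 genes relative to the mean, except for NONO, and 12.3, 10.3 and 10.6 TPM with NEAT1siRNA. All silenced libraries were below all control libraries. The log2 fold change was -0.34 (SE 0.09, 95% interval -0.53 to -0.15, adjusted p = 0.0161, limma). Its adjusted p with limma rose above the threshold without CsiRNA replicate 1 (0.0510), CsiRNA replicate 2 (0.0554) or NEAT1siRNA replicate 3 (0.0793), with log2 fold changes of -0.34, -0.33 and -0.31. A read-through gene that joins RBM14 to its neighbour, RBM14-RBM4, was listed at 0 in each library, and RBM4 itself was 3.87 ± 0.0894 TPM with CsiRNA and 3.57 ± 0.360 TPM with NEAT1siRNA (adjusted p = 0.573, limma).

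**Figure D3:**
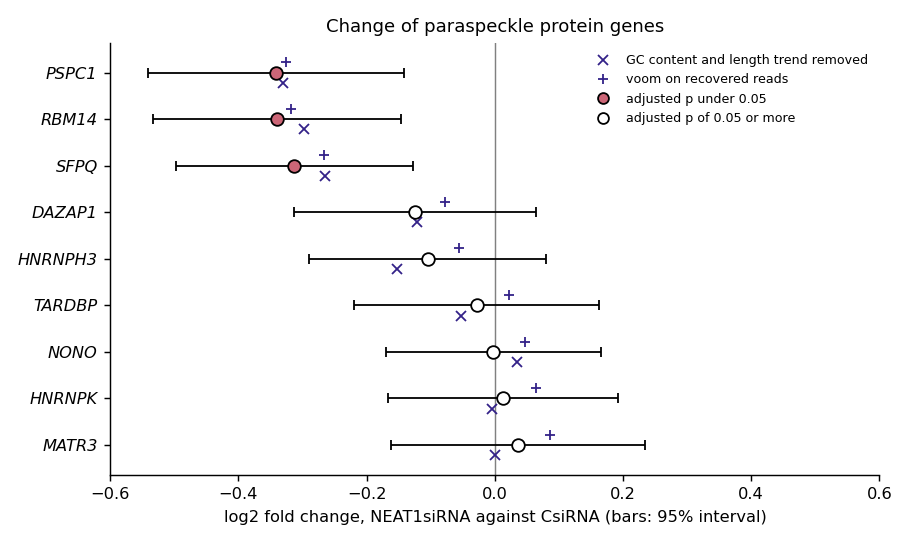
Log2 fold change of NEAT1siRNA against CsiRNA on log2(TPM + 1) for each of the 9 genes (circles, with 95% intervals; filled where the adjusted p is under 0.05), with the values after removal of the trend on GC content and length (crosses) and from voom on recovered reads (plus signs). The intervals of PSPC1, RBM14 and SFPQ lie below 0, and those of the other 6 genes include it.

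HNRNPK, a poly(C)-binding protein known to favour the long NEAT1 isoform by competing with 3′-end processing, lies at chr9:83968083-83980631 on the minus strand. HNRNPK measured 240.4, 227 and 210.2 TPM with CsiRNA and 221, 248 and 215 TPM with NEAT1siRNA. The highest of the 6 values came from NEAT1siRNA replicate 2, and the groups overlapped (log2 fold change 0.013, 95% interval -0.17 to 0.19, adjusted p = 0.947, limma). The genes of the 3′-end processing factors NUDT21, CPSF6 and CPSF7, which produce the short isoform, had log2 fold changes of -0.059, 0.037 and -0.039, and 0 of 3 passed the test with limma, at the adjusted threshold or at an unadjusted p under 0.05. The fit with voom on recovered reads also called 0 of 3.

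DAZAP1, an RBP of splicing and translation, lies at chr19:1407569-1435687 on the plus strand. It measured 50.8, 45.9 and 47.0 TPM with CsiRNA and 45.3, 46.4 and 40.0 TPM with NEAT1siRNA, where 1 silenced library was inside the control range. The log2 fold change was -0.12 (95% interval -0.31 to 0.064, adjusted p = 0.409, limma). The interval covers both no change and a change as large as the estimates of SFPQ, so DAZAP1 could not be placed with either. HNRNPH3, a splicing regulator of the HNRNPH and HNRNPF family, was 52.2, 52.9 and 47.6 TPM with CsiRNA and 46.3, 50.2 and 45.2 TPM with NEAT1siRNA. The gene lies at chr10:68331174-68343193 on the plus strand. Of the silenced libraries, 1 was inside the control range, with a log2 fold change of -0.10 (95% interval -0.29 to 0.080, adjusted p = 0.488, limma). The relatives HNRNPH1 and HNRNPF, also paraspeckle proteins, were 163 ± 4.27 and 65.1 ± 4.94 TPM with CsiRNA and 172 ± 24.5 and 69.3 ± 8.84 TPM with NEAT1siRNA, and neither passed the test (adjusted p = 0.720 and 0.624, limma).

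TARDBP, which encodes TDP-43, an RBP that binds UG-rich RNA and NEAT1, lies at chr1:11012344-11030528 on the plus strand. It measured 50.3, 49.9 and 46.1 TPM with CsiRNA and 45.1, 53.4 and 45.3 TPM with NEAT1siRNA. The silenced group held both the highest and the lowest of the 6 libraries (log2 fold change -0.028, 95% interval -0.22 to 0.16, adjusted p = 0.884, limma). MATR3, a nuclear matrix protein that binds RNA and DNA, measured 69.5, 66.9 and 62.0 TPM with CsiRNA and 62.6, 78.4 and 63.4 TPM with NEAT1siRNA, so that 1 silenced library exceeded all controls and the other 2 were inside their range. The log2 fold change was 0.036 (95% interval -0.16 to 0.23, adjusted p = 0.857, limma).

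The MATR3 locus held a second transcript with a different result. The annotation has 2 MATR3 entries on the plus strand, at chr5:139273752-139331671 and chr5:139293674-139331677, and the longer one contains SNHG4, a host gene of small nucleolar RNAs, on the same strand with 10798 shared bases. SNHG4 measured 5.01, 5.16 and 4.51 TPM with CsiRNA and 3.29, 2.50 and 2.38 TPM with NEAT1siRNA. It fell in all silenced libraries, with a log2 fold change of -0.67 (SE 0.10, adjusted p = 7.30e-05, limma), while MATR3 did not pass the test. SNHG4 rests on a mean of 111 recovered reads and MATR3 on 8900, and how the authors assigned reads that both genes share is not given in the sources used here. The difference between the 2 fold changes was not tested.

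Scaled to NONO in the same library, SFPQ was 0.595, 0.544 and 0.565 with CsiRNA and 0.457, 0.489 and 0.426 with NEAT1siRNA. RBM14 went from 0.0693, 0.0699 and 0.0697 to 0.0586, 0.0501 and 0.0537, and PSPC1 from 0.0596, 0.0496 and 0.0568 to 0.0397, 0.0469 and 0.0415. For these 3 genes every silenced ratio was below every control ratio, as for their TPM. The scaling of the libraries has no part in such a ratio. NONO varied little (198 to 210 TPM over the libraries), so the ratios largely restate the TPM result and add no separate evidence. Ratios to NONO were taken only for the other RBP genes followed here, so no background share over all genes tested is known. In TPM, 19.3% of all genes tested had every NEAT1siRNA library below every CsiRNA library. The ratios of HNRNPK, DAZAP1, HNRNPH3, TARDBP and MATR3 to NONO overlapped between the groups.

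Libraries of the same group also differed along the base composition of the transcripts, which only some of the 9 genes followed. Over 10106 genes with known GC content, the Spearman correlation across genes between GC content and the deviation of a library from its group mean ran from -0.733 in NEAT1siRNA replicate 2 to 0.683 in NEAT1siRNA replicate 1 (genes are not independent replicates). Transcripts of low GC content were highest in NEAT1siRNA replicate 2 within their group. There, MATR3 (39.5% GC) was 0.21, HNRNPH3 (39.9%) 0.088, TARDBP (40.5%) 0.16 and HNRNPK (41.6%) 0.12 above the group mean of log2(TPM + 1). PSPC1 (45.5%) was 0.13 above it. At higher GC content the genes did not share a direction, since RBM14 (52.9% GC) was at -0.094 in that library while SFPQ (48.8%) was at 0.10 and DAZAP1 (57.3%), the richest in GC of the 9, at 0.081. Without NEAT1siRNA replicate 2, MATR3, HNRNPH3, TARDBP and HNRNPK had log2 fold changes of -0.068, -0.15, -0.11 and -0.048. The count of the 9 genes that passed remained at 3 in this fit. Over all genes, 2076 of 10713 passed in it, against 1498 of 10721 in the main comparison.

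**Figure D4:**
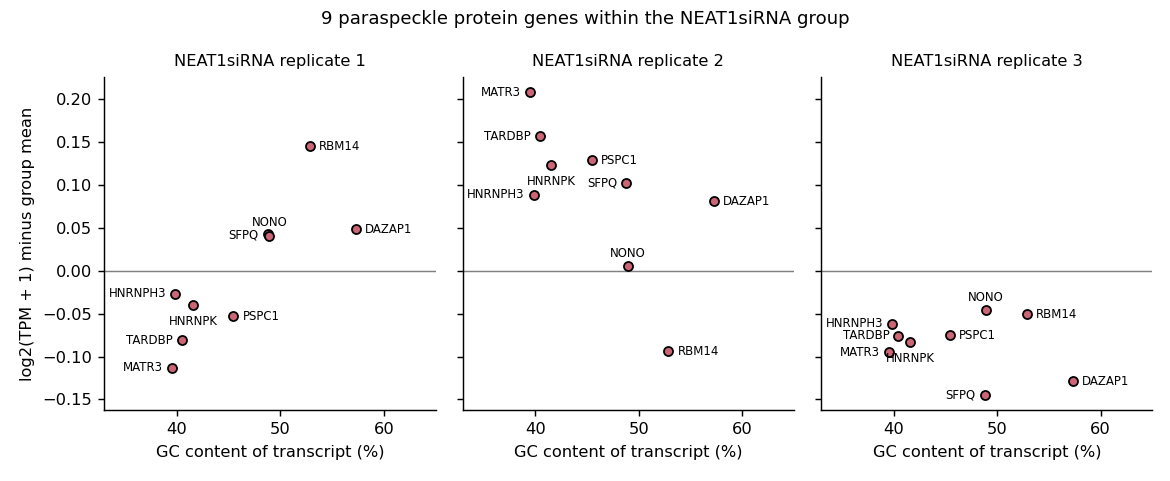
Deviation of each of the 9 genes from its NEAT1siRNA group mean (log2(TPM + 1), vertical axis) against the GC content of its transcript (percent, horizontal axis) in the NEAT1siRNA libraries, with a panel for each replicate. In replicate 2 the genes of low GC content are above the mean, as is DAZAP1 at 57.3% GC, and RBM14 alone is below it, and in replicate 3 all 9 genes are below.

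When each library was freed of its trend on transcript GC content and length, SFPQ, PSPC1 and RBM14 had log2 fold changes of -0.26, -0.33 and -0.30 (adjusted p = 0.00782, 0.00134 and 0.00421, limma). On recovered reads with voom, which do not depend on the short noncoding RNAs in the way TPM do, they were -0.27, -0.33 and -0.32 (adjusted p = 0.00617, 0.00584 and 0.0108, limma). The 3 calls were therefore made on either scale. More genes passed in general in both fits, so the smaller adjusted p are not particular to these 3. With GC content and length removed 2338 of 10106 genes passed, and with voom 2466 of 10721, against 1498 of 10721 in the main comparison. The estimates of NONO, HNRNPK, TARDBP and MATR3 lay on both sides of 0 across the settings tried, and none of these 4 passed the test under any of them.

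Other paraspeckle proteins served as a comparison. Of 29 listed genes, 27 passed the filter on TPM, 1 fell and 1 rose. Over all genes tested, 14.0% passed in either direction. RBM12, an RBP, measured 20.9, 18.2 and 19.3 TPM with CsiRNA and 15.3, 16.7 and 14.0 TPM with NEAT1siRNA (log2 fold change -0.33, SE 0.10, adjusted p = 0.0224, limma). The groups did not overlap, but the call was lost without CsiRNA replicate 1 (adjusted p = 0.125, limma) or NEAT1siRNA replicate 3 (0.139). CIRBP, a cold-inducible RBP, measured 5.66, 5.36 and 6.18 TPM with CsiRNA and 6.79, 8.003 and 7.05 TPM with NEAT1siRNA (log2 fold change 0.30, SE 0.10, adjusted p = 0.0395, limma). Its call was lost when CsiRNA replicate 1 (adjusted p = 0.110, limma), CsiRNA replicate 2 (0.166), NEAT1siRNA replicate 2 (0.0990) or NEAT1siRNA replicate 3 (0.0847) was left out. Groups lay apart for 2 lower genes of the list (RBM12 and FIGN) and 3 higher ones (CIRBP, RBM3 and RUNX3). Over all genes tested, 30.3% had groups apart in either direction. FIGN, RBM3 and RUNX3 stood at 77.8%, 110.3% and 124.0% of the control mean. These 3 genes did not pass the test (adjusted p = 0.0864, 0.367 and 0.257, limma). The median log2 fold change of the 27 genes was 0.038, with 16 positive and 11 negative, and 20 of them were within 0.15 of 0. CELF6 and ZC3H6 were below the filter.

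MYC, a transcription factor whose link to RBP genes is among the questions of the study, fell in the same libraries. It measured 38.6, 36.3 and 35.3 TPM with CsiRNA and 27.2, 28.1 and 25.9 TPM with NEAT1siRNA (log2 fold change -0.43, adjusted p = 0.00197, limma). Its groups lay apart, as did those of SFPQ, PSPC1 and RBM14. The same held for 19.3% of all genes tested, where every NEAT1siRNA library was below every CsiRNA library. The part of MYC in the levels of the 9 genes was not tested. Promoter sequence from RefSeq (GRCh38.p14, 250 bases before to 50 after a start site) was matched for 8 of the 9 genes, not SFPQ. The E-box CACGTG, the core motif of MYC and other factors, which reads the same on either strand, was present in 1 of the 12 promoters of these 8 genes, against 7.26% of all 35116 promoters, a share near this background. It starts 50 bases before an HNRNPH3 start site, within chr10:68331631-68331660 on the plus strand, and is shown in capitals in its surrounding sequence as the single match among these 12 promoters.
HNRNPH3 promoter: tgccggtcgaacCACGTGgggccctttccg

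Reads of near-identical sequence could affect some of these genes. GENCODE annotates 5 pseudogenes of HNRNPK, 3 each of TARDBP and MATR3, 2 of PSPC1, and 1 each of SFPQ, NONO and HNRNPH3, and none of RBM14 or DAZAP1. The expression table has a row for 1 of them, a pseudogene of HNRNPK, which was listed at 0. NONO overlaps ZMYM3 on the opposite strand by 333 bases, PSPC1 overlaps PSPC1-AS2 by 1133 bases and HNRNPK overlaps HNRNPK-AS1 by 3545 bases, and HNRNPH3, TARDBP and MATR3 also overlap genes of the opposite strand. The library kit keeps the strand, but whether counting used it is not given in the sources used here.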

How the data were processed

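RNA-seq of BT-549 cells (CsiRNA and NEAT1siRNA, 3 libraries each) was analysed from the deposited tables. The authors made stranded mRNA libraries (TruSeq), aligned reads with STAR to GRCh38, and deposited TPM per gene and library. The authors also deposited a table of DESeq2 output, of which only the mean normalized count (a signal: the average of size-factor-scaled counts in the 6 libraries) was used here. Its log2 fold changes, errors, test statistics and p-values are the authors' own comparison and were not used. The counter is not given in the sources used here.

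Groups were compared on log2(TPM + 1) with lmFit and eBayes (trend) of limma 3.58.1 in R 4.3.3, on the 10721 genes whose mean TPM reached 1, two-sided, with Benjamini-Hochberg adjustment over all of them and a threshold of 0.05. Fold changes on this scale understate the change of low genes. Shares were tested with an exact permutation test, and other steps used Python 3.11.15. TPM keep no depth, so reads were recovered by joining both tables over 18531 shared genes. They were within 0.05 of a whole number for 99.9% of values of genes with a mean count under 5, but for 15.4% above 500, so reads of the 9 genes are approximate. Positions, GC content and length came from GENCODE (GRCh38) by symbol and promoters from RefSeq.

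The 9 genes and the other lists were chosen with earlier results of these data known. Named were the 9 genes, NEAT1, MALAT1 and MYC, genes of each list past the threshold (at most 8) and all genes of lists of 5 or fewer, and the 5 genes nearest to SFPQ and to NONO by Pearson r. SNHG4 came from a list of paralogs and overlapping genes, and FIGN, RBM3 and RUNX3 were named because their groups lay apart. On simulated data, 98.4% of changes of 1 and 79% of changes of 0.5 on the log2 scale were found, and 7.32% of calls were false. The simulation drew genes independently, with a common noise level, few changed genes and no shared trend on GC content. These rates therefore need not hold for the real libraries. No library pair agreed within counting noise. The chi-square per degree of freedom of a library pair ran from 4.79 to 15.2 within groups. It ran from 14.0 to 31.6 between groups, so these ranges overlapped. Settings tried were a pseudocount of 0.1, no filter, a filter at a mean TPM of 5, scaling by quantiles or by the median, TPM without 4 short noncoding RNAs, eBayes without trend, the replicate block, GC and length removal, voom, an adjusted p under 0.01, and each library left out.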

Additional observations from a re-analysis of the deposited data

How the results depend on the processing

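Of 153 values of the 9 genes over 17 settings, 140 kept the call of the main comparison and 13 lost it, all for SFPQ, PSPC1 or RBM14, with none gained and no called value changing sign. Of the 9 genes, 3 passed in the comparison as reported, 0 with no filter on TPM (18531 genes tested), 0 at an adjusted p under 0.01, and 0 to 3 with each library left out (0 without CsiRNA replicate 1 or NEAT1siRNA replicate 3), although the same 3 had an unadjusted p under 0.05 with limma in each of these fits. With no filter, the adjusted p with limma was 0.0919 for SFPQ, 0.106 for PSPC1 and 0.0767 for RBM14. Of the other paraspeckle proteins, 2 passed in the comparison as reported (3 at an unadjusted p under 0.05, limma), 0 with no filter (4 unadjusted), 4 with quantile normalization, 0 at an adjusted p under 0.01, and 0 to 2 with each library left out. Over all genes, 1498 passed, against 505 with no filter, 2338 with GC content and length removed, 2466 with voom, 719 at an adjusted p under 0.01, and 784 to 2076 with each library left out; the cause was not tested. For the 9 genes, the median log2 fold change ran from -0.15 (without NEAT1siRNA replicate 2) to -0.060 (without NEAT1siRNA replicate 3) with each library left out and was -0.048 with median centring. Over all genes tested, the median in these 3 fits was -0.083, -0.010 and 0.013. The difference in the SFPQ share of DBHS mRNA ran from -5.18 to -3.79 percentage points with each library left out.

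The correlations of same-numbered libraries were -0.030, 0.25 and -0.11, and those of unlike numbers ran from -0.40 to 0.40. With so few libraries, which also share trends on GC content, these values cannot decide whether replicate numbers pair the libraries. With the replicate block, 1640 genes and 3 of the 9 passed (SFPQ, PSPC1 and RBM14, adjusted p = 0.0153, 0.0274 and 0.0177 with limma), 2 of the other paraspeckle proteins passed, and the SFPQ share differed by -4.50 percentage points (exact p = 0.25). Not every library correlated best with its own number. Precision is limited by 3 libraries a group.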

Other observations

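The genes whose log2(TPM + 1) followed SFPQ most closely over the 6 libraries were UBE2G2, CBWD5, LAMP1, GLB1 and PUM3, with Pearson r from 0.995 to 0.998. Of these, LAMP1 and PUM3 passed the test, with log2 fold changes of -0.26 and -0.35 (adjusted p = 0.0381 and 0.0125, limma). The genes nearest to NONO were CLTB, ATP5D, TOM1, INAFM1 and KIAA0930, with r from 0.950 to 0.985, and none of the 5 passed (adjusted p from 0.880 to 0.990, limma). Among the 9 RBP genes, SFPQ was nearest to PSPC1 (r = 0.943), DAZAP1 (0.910) and RBM14 (0.826), and its r with NONO was 0.348. These values describe 6 libraries of 2 groups that share depth and base composition within a library, and are given with no p.

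Relative to the CsiRNA means, the median of the 9 genes was -0.11 in NEAT1siRNA replicate 1, -0.017 in replicate 2 and -0.17 in replicate 3 on the log2 scale, beside -0.051, 0.020 and -0.11 over all genes tested. In CsiRNA replicates 1, 2 and 3 the median of the 9 was 0.069, 0.014 and -0.026, beside 0.075, -0.016 and -0.060.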
